A study of Mus musculus with 16 samples.

Results

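The Runx genes, Runx1, Runx2 and Runx3, were examined for CpG methylation in clonal and parental lines of mouse embryonic fibroblasts (MEFs). Members were all CpGs of the deposited series table that lay from 5 kb before the start of a gene to its end (GENCODE M21 annotation, mm10 build). In total 811 of 1203687 CpGs were found, 405 in Runx1, 188 in Runx2 and 218 in Runx3. The genes were chosen by the methylation levels of MEF-1 against MEF-2 clonal lines, since earlier results of these data had shown a difference near a start of Runx1. The comparison of MEF-1 with MEF-2 clonal lines is therefore a description at all 3 genes. Its counts of called CpGs are printed beside the share called in the whole table, and nothing is read from them. Tests from which anything is read were kept for comparisons within a family of lines. The choice of genes did not use these comparisons, although it used levels of the same clonal lines.

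RUNX proteins are transcription factors that bind DNA through a Runt domain and do so in a complex with the partner CBFB. Each mouse Runx gene has a distal promoter (P1) and a proximal promoter (P2), which give proteins with different first residues, and in general a methylated CpG island promoter is not used. Runx1 is known for blood formation, Runx2 for the bone-forming osteoblast, and Runx3 for T cells, sensory neurons and the stomach epithelium.

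The cells came from sibling C57BL/6J embryos at E13.5 (embryonic day), were immortalised by serial passage through crisis, and had no further treatment. Their parental cultures, MEF-1 and MEF-2, are mixtures of cells and gave 1 library each, with no replicates. From each culture, 7 clonal lines were grown, every line from 1 sorted cell, so that 16 libraries of target capture bisulfite sequencing (tcBS-seq) were available. A parental culture and its clonal lines are called a family, and because each family traces back to 1 embryo, male for MEF-1 and female for MEF-2, family, embryo and sex cannot be told apart. A level is the percentage of reads over a CpG called methylated. In a parental culture, a mixture of methylated and unmethylated cells cannot be told apart from partial methylation within cells.

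Libraries held 59243669 to 90633091 calls, where 1 call is 1 read over 1 CpG, and every CpG of the table had at least 10 reads in all libraries. The median coverage was 29 reads at Runx1 (library medians 24 to 37), 31 at Runx2 (21 to 40) and 28 at Runx3 (23.5 to 36), so single CpGs are less precise than windows. Reads are PCR copies without molecular identifiers, and intervals cover counting error only, with calls treated as independent. No pair of lines differed by as little as sampling noise (the lowest mean squared difference was 2.09 times the sampling variance), with MEF-1 lines 1, 4 and 5 closer to each other than to the remaining MEF-1 lines. Mean levels within 2 kb of the starts of 8 measured fibroblast genes had medians of 2.19% (MEF-1) and 1.57% (MEF-2) in the clonal lines (Thy1 was at 93.5% and 94.8%), against 75.2% and 75.5% for 6 blood genes and 54.4% and 44.5% for 4 epithelial genes. Relative coverage within 5 Mb of Runx1 was 0.778 in MEF-1 line 6 and 0.915 to 1.03 in the other lines.

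Positions are given in bp from a start, negative before it. The Runx1 gene (chr16:92601466-92826149, minus strand) has its distal start at 92826149 and proximal starts at 92697328 and 92696125, 129 kb downstream. For Runx2 (chr17:44495987-44814797, minus strand) the starts are 44814797 and, for the proximal promoter, 44736648 and 44735710. Runx3 (chr4:135120652-135177990, plus strand) starts at 135120652 and 135152496. A promoter window reached 2 kb to each side of its starts. The proximal start regions are rich in CpGs, with 35 and 45 CpGs in the 300 bases of the RefSeq promoters (GRCm38) of Runx1 and Runx3, more than in 93.0% and 98.1% of 32851 promoters. The distal promoters of Runx1 and Runx2 held 2 CpGs and that of Runx3 held 8, against a median of 7.

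The stretches below are shown because they lie before each proximal start region, where the families differed, all in introns. No annotation of CpG islands was used. Island here means the CpG-rich region around the proximal starts, low in both families where measured, and flank the CpGs beside it. The Runx1 flank is itself dense in CpGs. The 39 CpGs of its long run, described below, had a median of 11 others within 100 bp. They are mm10 reference sequence of the gene's strand, 300 bases long, and capitals mark CpGs whose mean levels differed by at least 20 points between the families (measured with at least 5 reads in all libraries). They cover chr16:92697944-92698243 (minus strand, -915 to -616 bp from the first proximal start), chr17:44737432-44737731 (minus strand, -1083 to -784 bp) and chr4:135151222-135151521 (plus strand, -1274 to -975 bp).
Runx1: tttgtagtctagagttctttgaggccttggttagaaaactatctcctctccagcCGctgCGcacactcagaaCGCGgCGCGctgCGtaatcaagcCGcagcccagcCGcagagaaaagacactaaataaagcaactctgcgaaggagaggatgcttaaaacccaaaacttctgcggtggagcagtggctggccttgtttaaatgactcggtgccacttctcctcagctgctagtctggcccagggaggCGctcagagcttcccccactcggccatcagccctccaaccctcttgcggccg
Runx2: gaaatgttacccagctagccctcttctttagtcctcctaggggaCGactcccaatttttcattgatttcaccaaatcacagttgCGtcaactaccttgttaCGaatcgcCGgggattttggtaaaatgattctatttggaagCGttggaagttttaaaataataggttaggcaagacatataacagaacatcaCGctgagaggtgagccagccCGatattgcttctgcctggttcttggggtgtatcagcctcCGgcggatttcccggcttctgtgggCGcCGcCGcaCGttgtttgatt
Runx3: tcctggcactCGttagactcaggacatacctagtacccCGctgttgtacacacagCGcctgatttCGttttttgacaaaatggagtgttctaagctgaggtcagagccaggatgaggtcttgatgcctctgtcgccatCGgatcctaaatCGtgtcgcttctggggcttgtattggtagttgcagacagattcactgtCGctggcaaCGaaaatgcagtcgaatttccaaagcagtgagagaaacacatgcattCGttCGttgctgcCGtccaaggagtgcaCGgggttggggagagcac
The Runx1 stretch holds 16 CpGs, of which 13 were measured and 10 are in capitals, and its last 3 measured CpGs, in lower case near the right end, mark the edge described below. In the Runx2 and Runx3 stretches 12 of 15 measured CpGs are in capitals. The Runx1 capitals are CpGs with MEF-1 higher, the Runx2 capitals have MEF-2 higher and the Runx3 capitals MEF-1 higher.

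The distal promoters are shown because they share a tandem of the motif that RUNX proteins themselves are known to bind. The longest run of bases common to the 3 RefSeq distal promoters was 18 bases, given in capitals, and it holds the RUNX core motif ACCACA in tandem. It lies at chr16:92826026-92826053 and chr17:44814584-44814611 (minus strands) and chr4:135120504-135120531 (plus strand), flanking bases included.
Runx1 distal: ataaaCAACCACAGAACCACAAGttggg
Runx2 distal: acaaaCAACCACAGAACCACAAGtgcgg
Runx3 distal: tccctCAACCACAGAACCACAAGgccag
The tandem form AACCACANAACCACA (either strand) was found in 5 of 32851 promoters (0.0152%), 3 of which are these. This form is contained in the shared 18 bases, so the match of these 3 was given in advance and is no enrichment. The core ACCACA on either strand was in 5506 promoters (16.8%), but in neither of the 2 proximal Runx promoters tabulated and in none of the 3 flanking stretches. A match is a description of letters and says nothing of binding.

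The largest family difference of the Runx genes lay before the proximal promoter of Runx1, the blood regulator. Between -1562 and -819 bp (chr16:92698147-92698890, 744 bp, intron), 39 consecutive measured CpGs averaged 90.3% ± 2.10 (SD, n = 7) in MEF-1 against 4.39% ± 1.34 (SD, n = 7) in MEF-2 clonal lines. MEF-1 lines 1 to 7 had 88.5, 92.4, 92.6, 88.5, 92.5, 89.2 and 88.2%, and MEF-2 lines 1 to 7 had 2.70, 3.36, 5.72, 5.96, 4.60, 3.09 and 5.33%. The families did not overlap in this stretch, nor at any of its 39 CpGs, where the differences ran from 43.9 to 100 points. Of all CpGs, 5.19% had no overlap with MEF-1 higher, and 9.41% had none in either direction. The stretch was picked out as a run by its family means, so its lack of overlap is not independent of that choice. A run was defined as at least 3 consecutive measured CpGs that differed by 20 points or more in the same direction, as 22.8% of all CpGs did in either direction (12.6% with MEF-1 and 10.2% with MEF-2 higher). The series table held 16044 runs with 5.16% of its CpGs, their median length was 3 CpGs and 85 bp, and 6 runs had 39 CpGs or more. The span stayed at 744 bp with any clonal line left out, and without MEF-1 line 6 the difference was 86.1 points in place of 85.9.

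In the parental libraries, of 1375 calls over the stretch, 91.4% were methylated in the MEF-1 culture (95% Wilson interval 89.8 to 92.8) and 12.8% of 1496 in the MEF-2 culture (11.2 to 14.6). A read can cover several of these CpGs, so the calls are not independent and the intervals are too narrow. The mean over CpGs was 11.3% in the MEF-2 culture, above each of its 7 clonal lines. At the CpG with the widest gap, chr16:92698415 (-1087 bp), all 7 MEF-1 lines and their culture had 100%, all 7 MEF-2 lines 0%, and the MEF-2 culture 16.3%, with 20 to 49 reads per library. Another 4 CpGs, at 92698403, 92698628, 92698158 and 92698277, differed by 98.3 to 98.8 points.

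MEF-1 levels inside the stretch were not uniform. Of the 39 CpGs, 29 had a MEF-1 mean above 90%, whereas 4 lay at 40 to 60%: 92698649 (45.1% ± 16.9, SD, n = 7), 92698496 (45.8% ± 31.9), 92698458 (52.1% ± 11.9) and 92698452 (56.4% ± 19.03). The last pair are neighbours, whereas 92698496 lay between CpGs at 99.2% ± 1.44 (92698531) and 98.4% ± 2.48 (92698475). In MEF-2, 36 of the 39 CpGs averaged under 10%, and the highest was 33.0% ± 17.6 at 92698562 (-1234 bp). Single CpGs thus departed from the stretch in both families.

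CpGs with at least 5 reads were used to draw the edges, where few CpGs had 10 reads in all libraries. Toward the start, MEF-1 fell from 93.6% ± 9.91 at -666 bp (92697994) to 6.52% ± 6.48 at -646 bp (92697974), a distance of 20 bp, with MEF-2 at 1.19% and 0%. Both families were then low across the island and past the proximal starts. Away from the start, MEF-2 changed over a longer distance, with 98.8% ± 3.24 at -1725 bp (92699053), 62.7% ± 18.6 at -1679 bp, 24.2% ± 24.9 at -1657 bp and 2.12% ± 2.75 at -1595 bp. MEF-1 was also lower at some of these CpGs, with 74.2% ± 25.4 at -1669 bp, 71.2% ± 31.8 at -1651 bp and 50.7% ± 26.9 at -1595 bp, and had 98.5% ± 2.57 at -1562 bp. At this depth 2 CpGs inside the stretch, at -1504 and -1488 bp, had only 17.1% ± 17.2 and 19.5% ± 15.7 in MEF-1, so that the longest run became 44 CpGs from -1484 to -666 bp. With a difference of 50 points required in place of 20, the longest run had 25 CpGs, from -1147 to -819 bp.

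**Figure D1:**
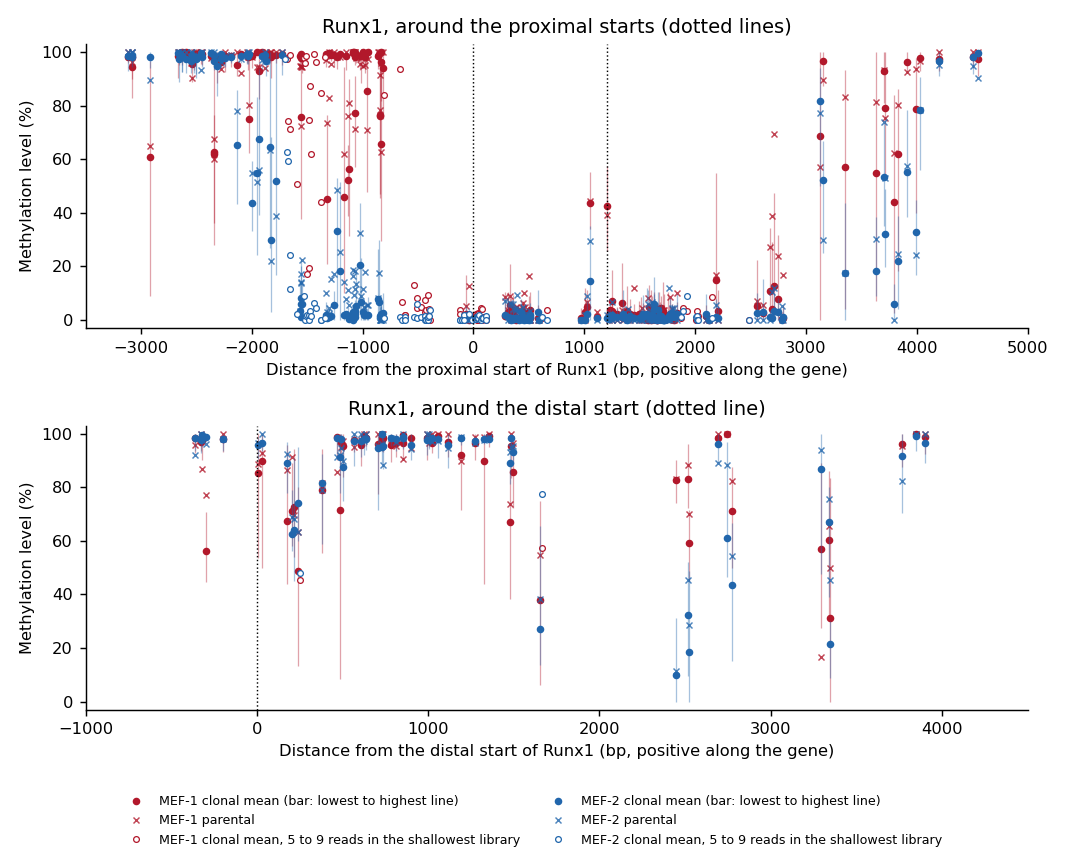
Methylation level (%) of each measured CpG of Runx1 against its distance from the proximal start (top) and the distal start (bottom), in bp. Filled points are means of 7 clonal lines with bars from the lowest to the highest line, crosses are parental libraries and open points are CpGs with 5 to 9 reads in the shallowest library. From -1562 to -819 bp of the proximal start MEF-1 means average 90.3% and MEF-2 means 4.39%, while both families are near 0 from the start to 2 kb (apart from 2 CpGs) and near 100% at most CpGs of the distal promoter.

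Further out, the families also differed in short stretches and at single CpGs, in both directions. MEF-2 was higher at -2341 bp (62.0% ± 22.5 in MEF-1 and 96.6% ± 2.63 in MEF-2), at -2339 bp (62.8% ± 14.6 and 98.8% ± 1.51) and at -2029 bp (75.0% ± 12.4 and 99.4% ± 1.04). Before the long run lay 3 CpGs at -1999 to -1939 bp with 97.2% ± 1.87 in MEF-1 lines and 55.4% ± 11.1 in MEF-2 lines, and 3 at -1834 to -1781 bp with 98.8% ± 1.07 and 48.7% ± 18.6 (SD, n = 7 each). The MEF-2 lines ranged from 16.8 to 67.0% in the latter, and CpGs between these stretches (-1905 to -1725 bp) included sites that differed by under 3 points, so high and low sites alternated. After the proximal starts, 9 CpGs at 3153 to 3989 bp (chr16:92693339-92694175) averaged 73.5% ± 17.1 in MEF-1 against 32.1% ± 5.16 in MEF-2. There MEF-1 lines 1, 4 and 5 had 87.1, 94.3 and 92.5%, and lines 2, 3, 6 and 7 had 54.3, 58.4, 64.8 and 62.9%. The MEF-2 lines reached 24.8 to 39.8% and did not overlap with them. Within the unmethylated island, isolated CpGs at 92696275 and 92696119 had 43.6% ± 7.66 and 42.4% ± 12.4 in MEF-1 against 14.5% ± 16.04 and 0.836% ± 1.15 in MEF-2.

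The distal promoter of Runx1, in contrast, was methylated in both families. Its 42 measured CpGs averaged 89.2% ± 2.65 in MEF-1 and 92.4% ± 1.19 in MEF-2 clonal lines (SD, n = 7 each), with lines from 86.2 to 93.1% and from 91.4 to 94.8%. The families overlapped, and the cultures had 92.4% and 92.5%. In the 500 bp before the start they did not overlap, as 5 CpGs had 87.2 to 91.9% in MEF-1 and 96.2 to 100% in MEF-2 lines. At 1 of these CpGs, -295 bp from the start (92826444), MEF-1 lines had 44.4 to 70.7% and MEF-2 lines 96.9 to 100%. Lower levels were seen in 500 bp after the start, where 10 CpGs had 78.1% ± 8.24 (MEF-1) and 85.1% ± 3.75 (MEF-2). The nearest run was past the window, 3 CpGs at 2446 to 2522 bp from the distal start with 75.1% ± 4.54 in MEF-1 against 20.2% ± 8.84 in MEF-2. With a difference of 50 points required, no run remained within 5 kb of the distal start.

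Counted over all CpGs, a quasi-binomial model over the 14 clonal lines (F-test, Benjamini-Hochberg adjusted p under 0.05 over the whole table) called 101 of 405 Runx1 CpGs, 79 with MEF-1 higher. The background was 20.2% of all CpGs tested (11.6% with MEF-1 higher and 8.53% with MEF-2 higher). In the proximal window 51 of 137 CpGs were called, all with MEF-1 higher, and 44 had no overlap between families, against 9.41% of all CpGs in either direction and 5.19% with MEF-1 higher. The distal window had 3 of 42 called, all with MEF-2 higher. As a window mean, the proximal promoter had 36.3% ± 1.23 in MEF-1 (34.7 to 38.7%) and 8.23% ± 0.377 in MEF-2 (7.70 to 8.85%), with 37.8% and 10.4% in the cultures. The window mean mixes the island with its flank, and over the 1 kb before the start, which is the study's promoter, the families were 77.0 points apart. That interval has 15 measured CpGs, of which 13 belong to the long run and 2, at -64 and -41 bp, to the thinly covered island.

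Runx2, the osteoblast regulator, differed in the opposite direction. In its proximal window 18 of 56 CpGs (32.1%) were called, all with MEF-2 higher, and 11 had no overlap, against 4.22% of all CpGs without overlap in that direction. Over the gene 36 of 188 (19.1%) were called, 26 with MEF-2 higher, where the table had 20.2% and 8.53%. The window averaged 4.68% ± 1.87 in MEF-1 and 17.4% ± 2.62 in MEF-2 clonal lines (SD, n = 7 each), MEF-1 lines having 6.04, 2.05, 4.50, 5.02, 4.24, 7.76 and 3.14% and MEF-2 lines 12.2, 18.2, 17.2, 17.5, 20.9, 18.2 and 17.3%. No MEF-2 line was as low as any MEF-1 line, and the cultures had 4.19% and 17.5%. The difference of -12.7 points (MEF-1 minus MEF-2) depended on which CpGs were taken. It was -7.26 points with 5 reads required (124 CpGs), -34.1 with 20 reads (13 CpGs) and -33.0 over 1 kb before the start (9 CpGs).

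Of the 17 CpGs in the Runx2 window with MEF-2 higher by 20 points or more, 14 lay at -1257 to -829 bp, the same side of the island as in Runx1. They formed 3 runs, of 3 CpGs (MEF-1 at 3.89% ± 4.15, MEF-2 at 51.5% ± 9.73), 6 CpGs (1.04% ± 1.35 and 40.3% ± 12.2) and 5 CpGs (3.36% ± 3.55 and 41.2% ± 13.6; SD, n = 7 each). The last overlaps the antisense gene Runx2os1, and with a single entry per CpG the levels do not separate these genes. MEF-2 lines differed among themselves here, from 22.0 to 56.5% in the middle run and from 17.1 to 59.0% in the one nearest the start, so the flank was at intermediate levels rather than methylated. A level of 40 to 60% was seen in 18.1% of CpG and line pairs of the window in MEF-2 but 1.53% in MEF-1. Over the whole table these shares were 9.64% in MEF-2 and 9.55% in MEF-1. The other 3 CpGs lay further out, at -1894, -1869 and -1867 bp. At the last of these (44738515) MEF-1 lines had 0 to 10.5% and MEF-2 lines 28.6 to 88.9%, and at 44737876 (-1228 bp), in the outermost run, they had 0 to 3.57% and 32.4 to 96.9%. Nearer the start, 4 CpGs at -804 to -794 bp with under 10 reads had 1.11 to 1.57% in MEF-1 and 26.4 to 41.5% in MEF-2. Past the proximal starts both families were low, with 2.15% ± 0.617 and 1.28% ± 0.573 over 26 CpGs at 1000 to 1500 bp. The CpG with 10 reads nearest to the first proximal start lay 711 bp from it, so that start itself was not covered.

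The pair of widest gaps in Runx2 lay at intronic CpGs between the promoters. At 44776665 MEF-1 lines had 95.2 to 100% and MEF-2 lines 0 to 10.2%, and at 44778060, where the gene Supt3 overlaps, MEF-1 lines had 0 to 6.25% and MEF-2 lines 47.4 to 100%. The former belongs to a run of 3 CpGs (chr17:44776525-44776711) with 82.6% ± 6.21 and 23.9% ± 4.80. In the gene body, 44672449 had 96.0 to 100% in MEF-1, while MEF-2 lines covered 5.56 to 100%. The distal promoter had no CpG with 10 reads in all libraries, the nearest lying 7627 bp from the start, and with 5 reads it had 1 CpG at 1635 bp with 98.9% ± 2.91 and 97.1% ± 4.96.

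**Figure D2:**
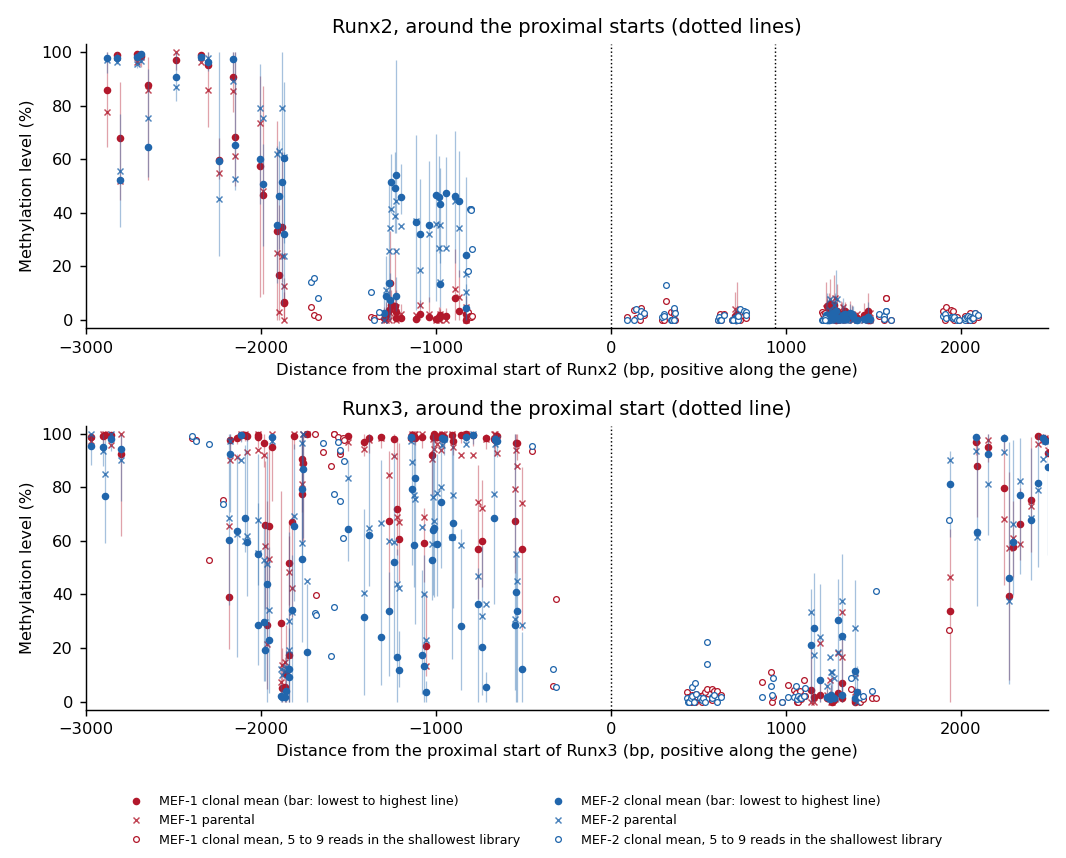
Methylation level (%) of each measured CpG against its distance (bp) from the proximal start of Runx2 (top) and Runx3 (bottom), with symbols as in the Runx1 profile. Before the Runx2 start MEF-2 means reach 40 to 60% where MEF-1 means are near 0, and before the Runx3 start MEF-1 means exceed MEF-2 means at most CpGs, with MEF-2 means spread from near 0 to near 100%.

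Runx3, known from T cells and sensory neurons, had MEF-1 higher before its proximal promoter, as in Runx1, but over intermediate MEF-2 levels. Of its 218 CpGs 86 (39.4%) were called, 68 with MEF-1 higher, where the table had 20.2% and 11.6%, and of 69 in the proximal window 36 (52.2%) were called, 32 with MEF-1 higher and 4 with MEF-2 higher. The window averaged 62.7% ± 1.36 in MEF-1 (61.0 to 65.0%) and 39.997% ± 3.18 in MEF-2 clonal lines (33.3 to 42.4%; SD, n = 7 each), and the families did not overlap. Their difference was 22.7 points, and 14.5 points with 5 reads required (123 CpGs). Between the CpG at -505 bp and that at 135153640, past the start, no CpG had 10 reads in all libraries. The window means therefore leave out the CpG-rich start region itself and are not levels of the start. From -2091 to -505 bp 7 runs followed each other, all with MEF-1 higher. The longest, 9 CpGs at -1737 to -1209 bp, had MEF-1 lines at 91.4, 85.7, 89.0, 85.5, 87.8, 91.3 and 84.5% and MEF-2 lines at 27.9, 43.0, 24.2, 44.7, 47.7, 27.4 and 30.2%. At 135151785 (-711 bp) the lines had 94.3 to 100% and 0 to 11.1%, and the MEF-2 culture 36.5%. Wide gaps were also seen at 135150759 (100% in all MEF-1 lines against 0 to 43.8%), 135151420 (94.6 to 100% against 2.63 to 49.1%) and 135151184 (94.7 to 100% against 6.25 to 90.2%).

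Elsewhere in Runx3 both directions occurred. Between the promoters 41 CpGs averaged 71.6% ± 1.46 in MEF-1 lines (69.7 to 74.0%) and 51.5% ± 3.36 in MEF-2 lines (48.5 to 57.9%), without overlap, and 17 of the 18 called there had MEF-1 higher. An intronic run of 5 CpGs at 8107 to 8216 bp from the distal start (chr4:135128759-135128868) had 47.5% ± 6.98 in MEF-1, with each of the 5 CpG means at 40 to 60%, and 6.15% ± 7.78 in MEF-2. At 2652 to 2664 bp after the proximal start 3 CpGs had 48.9% ± 9.76 in MEF-1 against 84.3% ± 6.37 in MEF-2. The last CpG of the gene with 10 reads, 135175535 in a coding exon, had 13.3 to 45.5% in the MEF-1 lines and 100% in all 7 MEF-2 lines, with 69.0% in the MEF-2 culture and 11 to 29 reads. The distal promoter, 8 CpGs at chr4:135120256-135120540, had 98.5% ± 0.608 and 84.1% ± 4.84, but with 20 reads required only 1 CpG was left and the difference turned to -2.74 points.

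**Figure D3:**
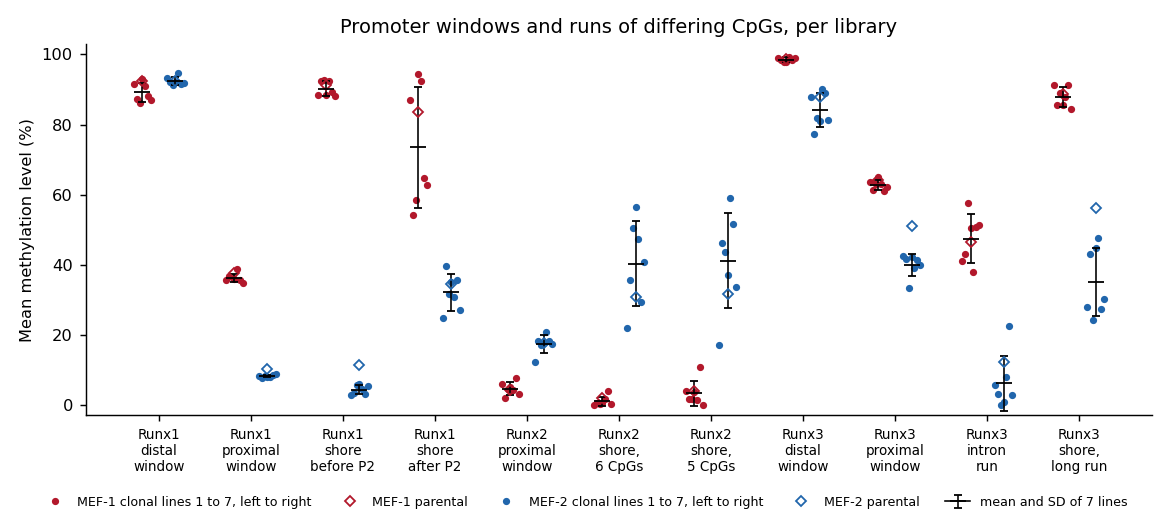
Mean methylation level (%) of promoter windows and runs of differing CpGs, with a point for each clonal line (lines 1 to 7 from left to right), a diamond for the parental library and a bar for the mean and SD of 7 lines. The shore before P2 is the run from -1562 to -819 bp and the shore after P2 the run from 3153 to 3989 bp of Runx1, the Runx2 runs shown are those of 6 and 5 CpGs, and the Runx3 long run has 9 CpGs. Shore names a position beside the proximal starts and rests on no annotation of CpG islands. The Runx1 shore before P2 separates the families at 90.3 and 4.39%, and the Runx2 runs show the reverse order with a wide spread of MEF-2 lines.

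Distal and proximal promoters were compared within each clonal line, without setting the families against each other. The levels near the Runx1 starts also led to the choice of that gene, so its comparison is not independent of the choice. The size of the distal minus proximal difference also carries the difference between families. In Runx1 the distal window was 52.9 points above the proximal window in MEF-1 (49.8 to 57.1 over lines) and 84.2 points in MEF-2 (82.9 to 86.8). In Runx3 it was 35.8 points above in MEF-1 (32.9 to 37.3) and 44.1 points in MEF-2 (35.7 to 51.0). The distal window was higher in 7 of 7 lines in each of the 4 gene and family pairs (two-sided exact sign-flip test, p = 0.0156 and adjusted p = 0.0156 for each, the smallest p that 7 lines allow). The cultures had differences of 54.6, 82.2, 34.7 and 36.7 points. Without MEF-1 lines 1, 4 and 5 the MEF-1 values were 51.3 and 36.5 points, and 4 lines cannot go below an exact p of 0.125. With 5 reads required, the differences were 54.7 and 83.8 points for Runx1 and 53.1 and 56.4 points for Runx3 in MEF-1 and MEF-2. Over 1 kb before the start only, the differences were 10.0 and 96.1 points for Runx1 and 8.11 and 24.9 points for Runx3 in MEF-1 and MEF-2. In that interval 13 of the 15 proximal CpGs measured in Runx1 belong to the long run, and the 19 of Runx3 lie at -992 to -505 bp. Independence of the 7 lines is assumed here, although they come from 1 culture that already had the same direction. This p is reached whenever all 7 differences share a sign, so it measures neither their size nor their spread.

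**Figure D4:**
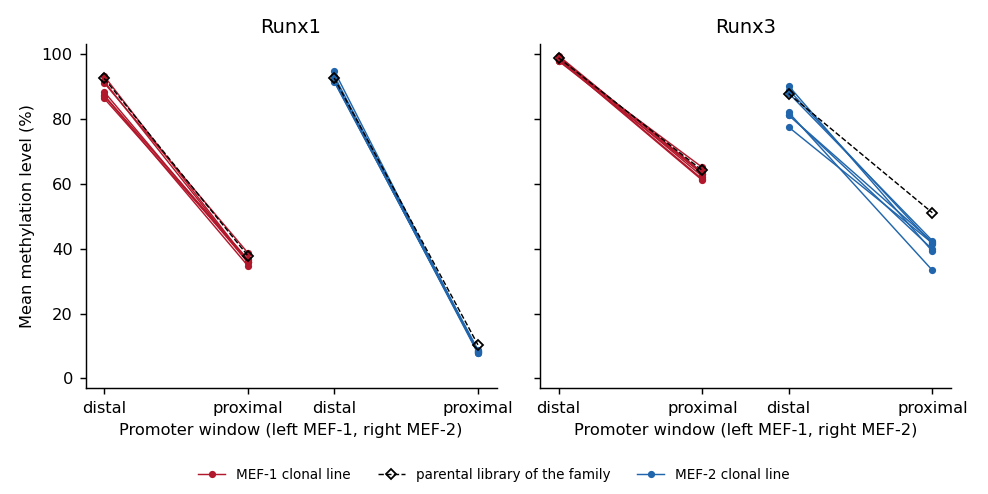
Mean methylation level (%) of the distal and proximal promoter windows of Runx1 and Runx3, with lines joining the values of 1 clonal line and a dashed line for the parental library. Every clonal line falls from distal to proximal, by 49.8 points or more in Runx1 and by 32.9 points or more in Runx3.

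Each clonal line was then set against its own parental library with Fisher's exact test per CpG, adjusted over the whole table within each line (Benjamini-Hochberg, 0.05). Each test compares 1 library with 1 library and covers counting error only. A call is therefore a difference between libraries of a clone and of its culture, which had no replicates. In Runx1 87 of 2835 CpG and line pairs (3.07%) were called for MEF-1 lines, and for MEF-2 lines 76 (2.68%), where the table had 3.46% and 6.57%. MEF-1 lines 1, 4 and 5 had 6, 2 and 5 calls in Runx1 and lines 2, 3, 6 and 7 had 18, 20, 19 and 17. The table had 1.34 to 1.54% called in the former lines and 4.54 to 5.53% in the latter, where Runx1 had 0.494 to 1.48% and 4.198 to 4.94%. In all 71 of the 87 calls were below the culture and 16 above. The split by direction over the whole table was not counted, so nothing is read from that at Runx1. In the long Runx1 run 8 of 273 pairs were called in the MEF-1 lines, and 6 of 273 in the MEF-2 lines. Runx2 had 49 calls of 1316 pairs (3.72%) for MEF-1, and for MEF-2 it had 42 (3.19%).

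In Runx3, 66 of 1526 pairs (4.33%) were called for MEF-1 lines, while for MEF-2 lines 214 (14.0%) were called, where the table had 3.46% and 6.57%. Whether these shares differ was not tested. With 20 reads required, 42 of 609 pairs (6.90%) and 159 of 609 (26.1%) were called, where the table had 5.68% and 10.4%. Thinned to 10 reads per CpG and library, no pair was called in a Runx gene or in the table, and at an unadjusted p under 0.05 Runx3 had 33 pairs (2.16%) in MEF-1 and 91 (5.96%) in MEF-2, where the table had 1.71% and 2.49%. The MEF-2 lines 1 to 7 had 25, 22, 23, 37, 29, 45 and 33 called CpGs of 218, which is 10.1 to 20.6% where the table had 4.68 to 7.93%. Of the 214 calls 136 were below the culture and 78 above, again without a count by direction over the whole table, so nothing is read from this split. The proximal window held 88 of the 214 calls (18.2% of its 483 pairs), and its mean was below the culture (51.0%) in 7 of 7 MEF-2 lines. Without MEF-2 line 4, 177 calls remained in 6 lines. The spread between lines was also wide at Runx3, with a median SD per CpG of 16.9 points in MEF-2 and 7.19 points in MEF-1, where the table had 4.13 and 3.75 points. The SD of MEF-2 includes line 4 and is not given without it. In the MEF-2 culture 28.4% of Runx3 CpGs were in the lowest or highest range of levels counted below, where the table had 64.5%. In the MEF-1 culture these shares were 56.0% and 69.1%. The table is therefore not matched to Runx3 for level. Calls and spread were not tested against CpGs of like level.

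The parental libraries were compared with each other by Fisher's exact test, which compares 2 libraries and not embryos. They come from the cultures that gave the clones, and the genes were chosen for this difference between families, so the counts are a description from which nothing is read. Of the Runx1 CpGs 92 of 405 (22.7%) were called, 77 with MEF-1 higher, where the table had 18.2% called and 10.6% with MEF-1 higher. In the proximal window 50 of 137 were called, all with MEF-1 higher. Runx2 had 38 of 188 (20.2%) called, with 17 in the proximal window, all with MEF-2 higher. Runx3 had 66 of 218 (30.3%), with 29 in the proximal window, 27 of them with MEF-1 higher.

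Levels at 0 to 10, 40 to 60 or 90 to 100% were counted per line. They are called faithful here after the study's fidelity score, which is a proxy. A CpG that is not faithfully inherited can also fall in these ranges. At Runx3 18.8 to 27.1% of CpGs were at 40 to 60% in 6 MEF-2 lines, but 6.42% in MEF-2 line 4, where 73.4% were at 0 to 10 or 90 to 100% (46.3 to 50.5% in the other lines). Within 5 Mb of Runx3, line 4 had 3.93% of CpGs at 40 to 60% against 9.04 to 10.4% in the other MEF-2 lines, at a relative coverage of 0.999. After the proximal promoter its Runx3 gene body was at 87.8%, and the other lines were at 66.5 to 74.3%. The part of this region-wide difference in the Runx3 values was not tested, and without line 4 the proximal families were 23.1 points apart in place of 22.7. At Runx1, where MEF-1 line 6 had lowered coverage, 5.57% of the CpGs within 5 Mb were at 40 to 60% in this line against 7.97 to 9.87% in the other MEF-1 lines, but in the gene it had 6.42% against 4.198 to 6.67%. Within 5 Mb of Runx2, MEF-1 line 1 had 5.65% against 8.57 to 10.2% in the other MEF-1 lines, and in the gene 3.72% against 5.32 to 11.7%. Faithful calls made up 87.2% and 86.3% of CpG and line pairs at Runx1 in MEF-1 and MEF-2, 87.7% and 85.3% at Runx2, and 77.7% and 71.4% at Runx3, where the table had 83.7% and 82.8%.

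**Figure D5:**
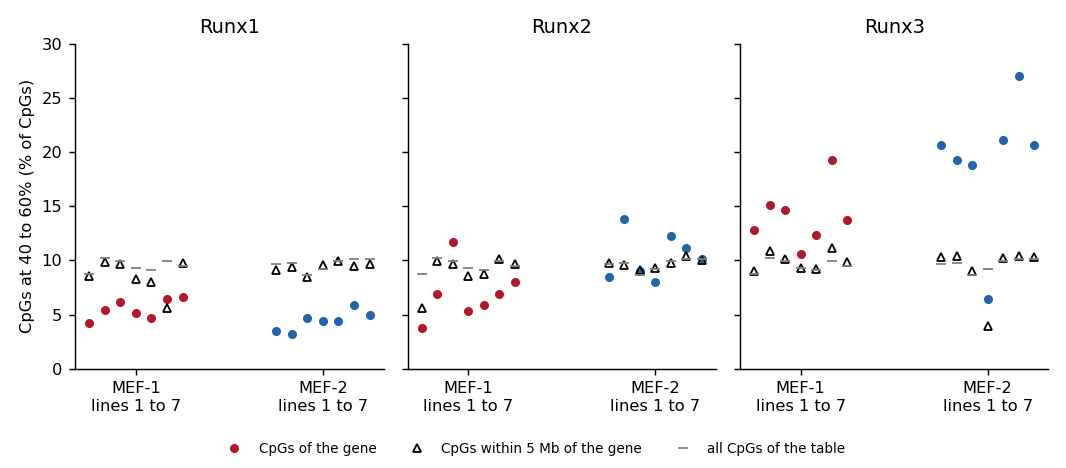
Share of CpGs at 40 to 60% methylation (% of CpGs) in each clonal line, with red points for the gene in MEF-1, blue points for the gene in MEF-2, triangles for CpGs within 5 Mb and dashes for the whole table. At Runx3 the MEF-2 lines are at 18.8 to 27.1%, apart from line 4 at 6.42%, which is also low within 5 Mb at 3.93%.

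Promoters with window means like those of Runx1 were sought among 13431 genes, by the mean absolute difference in window level over the 16 libraries from the Runx1 proximal window. Levels along the CpGs of a window were not compared. The closest were Islr and Islr2 (which share a window, 2.65 points), Ncam2 (2.82), Srcin1 (2.86) and Rusc2 (2.96). Islr and Islr2 had 39.8% ± 2.22 in MEF-1 and 8.75% ± 2.04 in MEF-2 lines, and Ncam2, a neural adhesion molecule on the chromosome of Runx1, had 37.3% ± 1.61 and 12.5% ± 2.496 (SD, n = 7 each). Of 31914 windows, 229 had family means at least as far apart as those of Runx1 with MEF-1 higher.

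Genes that work with RUNX proteins were described by the same model within 2 kb of their starts, where 13.8% of all CpGs were called (7.74% with MEF-1 and 6.04% with MEF-2 higher). Among 17 partners and cofactors 108 of 1024 CpGs (10.5%) were called, 67 with MEF-1 higher. Cbfb, which encodes the DNA-binding partner, had 3 of 50 called and levels of 12.6% ± 1.71 and 9.43% ± 1.58. Among 19 blood genes 199 of 1003 (19.8%) were called, 112 with MEF-1 higher, and among 11 measured of 16 bone and cartilage genes 48 of 245 (19.6%), 30 with MEF-2 higher. The 7 measured of 8 genes of T cells, neurons and growth had 39 of 410 (9.51%), 25 with MEF-1 higher. Csf2, a growth factor gene of myeloid cells and a known RUNX1 target, was the only listed gene with at least 5 CpGs of which 50% or more were called, 7 of 11, with 64.3% ± 5.38 in MEF-1 against 40.8% ± 7.52 in MEF-2 (SD, n = 7 each). The median difference between families over the genes of a list lay between 0.193 and 1.58 points, MEF-1 higher.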

How the data were processed

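Target capture bisulfite sequencing (tcBS-seq) of 16 libraries was used. Genomic DNA was enriched with RNA probes before bisulfite conversion. Per the labels, the authors' tools were Trim Galore 0.6.0 for trimming, Bismark for alignment to mm10 and R 3.6.1. Their methods state that calls of both strands were combined for the faithful and unfaithful regions, and do not state it for the deposited counts. The deposited values are counts of unmethylated and methylated reads per CpG, not normalized. A deposited table of the series holds 1203687 CpGs with 10 or more reads in each of the libraries, where its counts equalled the library tables throughout. Its score and percentage columns were not used. Removal of PCR duplicates is not given in the sources used here.

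Levels were methylated over all reads, in percent, and a window's level was the mean over its CpGs. Starts were those of protein-coding transcripts with a CCDS tag, grouped within 2 kb (for the Runx3 proximal start, a transcript of the basic set). The quasi-binomial model, Fisher's exact tests and sign-flip tests were written in Python 3.11.15 with numpy 2.4.6 and scipy 1.17.1, and tested on simulated data. Benjamini-Hochberg adjustment was over the table for the model and Fisher's exact tests, and over the 4 pairs below for the sign-flip tests. Distal windows were compared in 4 gene and family pairs, because Runx2 had no distal CpG with 10 reads. Single CpGs named are the 5 with the widest gap in each gene, the ends of runs, and CpGs beside an edge or apart from their stretch, which were picked after their values were seen. The members and gene lists were chosen with earlier results of these data known. Alternatives were other read minimums, windows and run definitions, thinning to 10 reads, pooled reads, a block by line number and leaving out lines.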

Additional observations from a re-analysis of the deposited data

Results flagged for a closer look

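In 84 groups of 7 lines, 10 had a line far from the others (Dixon's test), where chance flags about 1 in 20 independent groups. These groups are not independent, as runs lie inside windows and shares of a gene use the same CpGs. No excess is therefore read from this count. At Runx3, MEF-2 line 4 was such a line in 3 of them. Its gene body was at 87.8% (others 66.5 to 74.3%), 73.4% of its Runx3 CpGs were at 0 to 10 or 90 to 100% (others 46.3 to 50.5%), and 6.42% were at 40 to 60% (others 18.8 to 27.1%). MEF-2 line 3 had 33.3% in the Runx3 proximal window (others 39.2 to 42.4%), and MEF-2 line 6 had 22.6% in the run of 5 CpGs after the distal start of Runx3 (others 0 to 8.00%). At Runx2, MEF-2 line 1 had 12.2% in the proximal window (others 17.2 to 20.9%). MEF-1 line 6 had 3.88% and 10.8% in the Runx2 runs of 6 and 5 CpGs before the proximal start (others up to 1.65% and 4.03%), and MEF-1 line 2 had 87.8% of its Runx2 CpGs at 0 to 10 or 90 to 100% (others 77.1 to 81.4%). At Runx1, MEF-2 line 1 had 18.4% in a run of 4 CpGs far into the gene body, chr16:92609633-92609808 (others 35.6 to 47.1%). What lies behind these lines was not tested.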

How the results depend on the processing

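With 20 reads required in all libraries, the calls of MEF-1 against MEF-2 clonal lines were 59 of 175 CpGs in Runx1 (33.7%), 21 of 83 in Runx2 (25.3%) and 39 of 87 in Runx3 (44.8%), where the table had 23.2%. Those between the parental libraries were 50 of 175 in Runx1 (28.6%) and 38 of 87 in Runx3 (43.7%), where the table had 24.6%, and those of MEF-1 lines against their culture 42 of 609 pairs in Runx3 (6.90%), where the table had 5.68%. The proximal differences (MEF-1 minus MEF-2) were then 31.5, -34.1 and 25.8 points in Runx1, Runx2 and Runx3, and the Runx3 distal difference turned to -2.74 points at 1 CpG. With 5 reads required they were 25.5, -7.26 and 14.5 points, and over 1 kb before the start 77.0, -33.0 and 31.2 points, with -8.99 points at the Runx1 distal promoter. Reads pooled over the window gave 26.1 points for Runx1 and 25.5 for Runx3. Without MEF-1 lines 1, 4 and 5, the distal windows of MEF-1 were 51.3 (Runx1) and 36.5 points (Runx3) higher, with an exact p of 0.125, the smallest 4 lines allow. With 50 points required, 0 CpGs near the Runx1 distal start were in runs. Thinned to 10 reads, calls of a line against its culture were 0 in each gene and family and 0 in the whole table. Of the remaining alternatives 57 kept the side of the threshold or moved a count by less than 1.5 times or a level by less than the spread between lines, as did 210 that leave out 1 line each.

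With each line left out, called CpGs of Runx1, Runx2 and Runx3 were 93 to 99, 32 to 37 and 81 to 86 (18.3 to 19.3% of the table), and the Runx1 proximal difference was 27.6 to 28.3 points. Line numbers only name lines, as same-numbered lines did not deviate together (correlations of -0.00432 to 0.00353, and 0 lines had their best partner at their own number). A replicate block by number gave 87, 28 and 73 called CpGs (21.5, 14.9 and 33.5%), where the table had 17.1%. A CpG with 10 reads resolves its level in steps of 10 points, 5.24 to 17.2% of the reference CpGs of a gene had 10 reads in all libraries, and the 2 kb windows hold island and flank together. Edges drawn from CpGs with 5 to 9 reads rest on few reads.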
